A study of Rattus norvegicus with 8 samples.

Results

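The genes examined here mark the cells of the pituitary that make pro-opiomelanocortin, the corticotrophs of the anterior lobe and the melanotrophs of the intermediate lobe. They are Pomc, Tbx19, Neurod1, Pax7, Crhr1, Avpr1b, Crhbp, Pcsk1 and Pcsk2. A spot was taken when it was not a control spot and the array's own gene name equalled 1 of these 9 symbols, which gave 11 of 42877 spots per array, with 2 probes each for Tbx19 and Avpr1b and 1 probe for every other gene. Total pituitary RNA came from lactating Wistar rats on postpartum day 7: 4 samples labelled control and 4 labelled TCDD, the dioxin whose receptor is the aryl hydrocarbon receptor. Both groups share strain, lactation and day. The labels used here do not state dose, exposure time, any pooling of animals or whether the gland's lobes were separated. Each sample lay on its own single-colour array, and p-values measure only the spread between these samples, which may be technical. The comparison asks whether transcripts of these cell types differ between control and TCDD.

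Pro-opiomelanocortin is a precursor that corticotrophs and melanotrophs cut differently. Corticotrophs use the convertase PC1/3, encoded by Pcsk1, to release ACTH, and are driven by corticotropin-releasing hormone and vasopressin through the receptors CRHR1 and V1b, with glucocorticoids as negative feedback. Melanotrophs also carry PC2, encoded by Pcsk2, which cuts ACTH further towards alpha-MSH, and they lie under inhibition by dopamine. The T-box factor Tbx19 (Tpit) switches on Pomc in both cell types, and Pax7 selects the melanotroph identity.

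Arrays had a 75th percentile of signal from 765 to 932, and 0 spots were saturated. The share of spots well above background reached 73.9%. Control replicate 4 and TCDD replicate 2 had the lowest shares of spots well above background, 71.1% and 71.4%. Controls filled slide 1 and TCDD samples filled slide 2, and the effects of slide and group therefore cannot be told apart in any result below. As a check of the labels, Cyp1a1, a cytochrome induced through that receptor, was detected above background in all 4 TCDD samples and in 0 controls. Signals below are log2 values relative to the array's own 75th percentile, so 0 means a signal as bright as that percentile, and levels of different probes are not set against each other.

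The probes are shown because every value below is the brightness of 1 such stretch of transcript, and because Pax7, the defining gene of melanotrophs, gave no usable signal through its only probe. Coordinates are those of the rn4 build named in the files. Which exon each probe lies in was not analysed here. The Pomc probe lies at chr6:26937625-26937684 (plus strand), Pcsk2 at chr3:132255540-132255599 (plus), Crhr1 at chr10:93353354-93353413 (plus), Avpr1b probe 2 at chr13:44546928-44546987 (plus) and Pax7 at chr5:158547811-158547870 (minus). Each is given 5′ to 3′ as the files print it.
Pomc: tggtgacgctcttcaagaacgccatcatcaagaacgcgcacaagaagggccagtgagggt
Pcsk2: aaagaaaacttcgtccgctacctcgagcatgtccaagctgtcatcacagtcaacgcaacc
Crhr1: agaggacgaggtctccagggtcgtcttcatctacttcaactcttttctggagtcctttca
Avpr1b probe 2: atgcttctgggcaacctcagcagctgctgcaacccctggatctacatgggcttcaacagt
Pax7: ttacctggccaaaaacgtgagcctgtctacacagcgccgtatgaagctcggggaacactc

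Of the 9 genes, 8 passed the filter of being well above background on 4 or more arrays. None of these 8 passed the test between control and TCDD (limma with Benjamini-Hochberg adjustment over all genes, adjusted p between 0.62 and 0.99). At an unadjusted p under 0.05, 0 of 8 passed, where 7.76% of all genes did in the higher and 2.95% in the lower direction. That split depends on the scaling: it was 1348 higher and 512 lower here, and 755 and 813 with median centring, 1006 and 708 with quantile normalization and 937 and 796 in the deposited table. Over all 17361 genes tested 14 passed the adjusted threshold, 0.0806%, so 0 among 8 is no different from that background. The groups overlapped for each of the 8, where 7.10% of all genes had groups that did not overlap (5.19% higher and 1.91% lower). Pcsk2 had a value above 0 and the other 7 below, where 43.6% of all genes tested were below 0. The median log2 change was -0.10 beside 0.02 for all genes tested. With median centring these medians were -0.14 and -0.02. Exact two-sided permutation tests over the 70 assignments of arrays gave p between 0.17 and 0.94, where 4 against 4 arrays can reach 0.029.

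**Figure D1:**
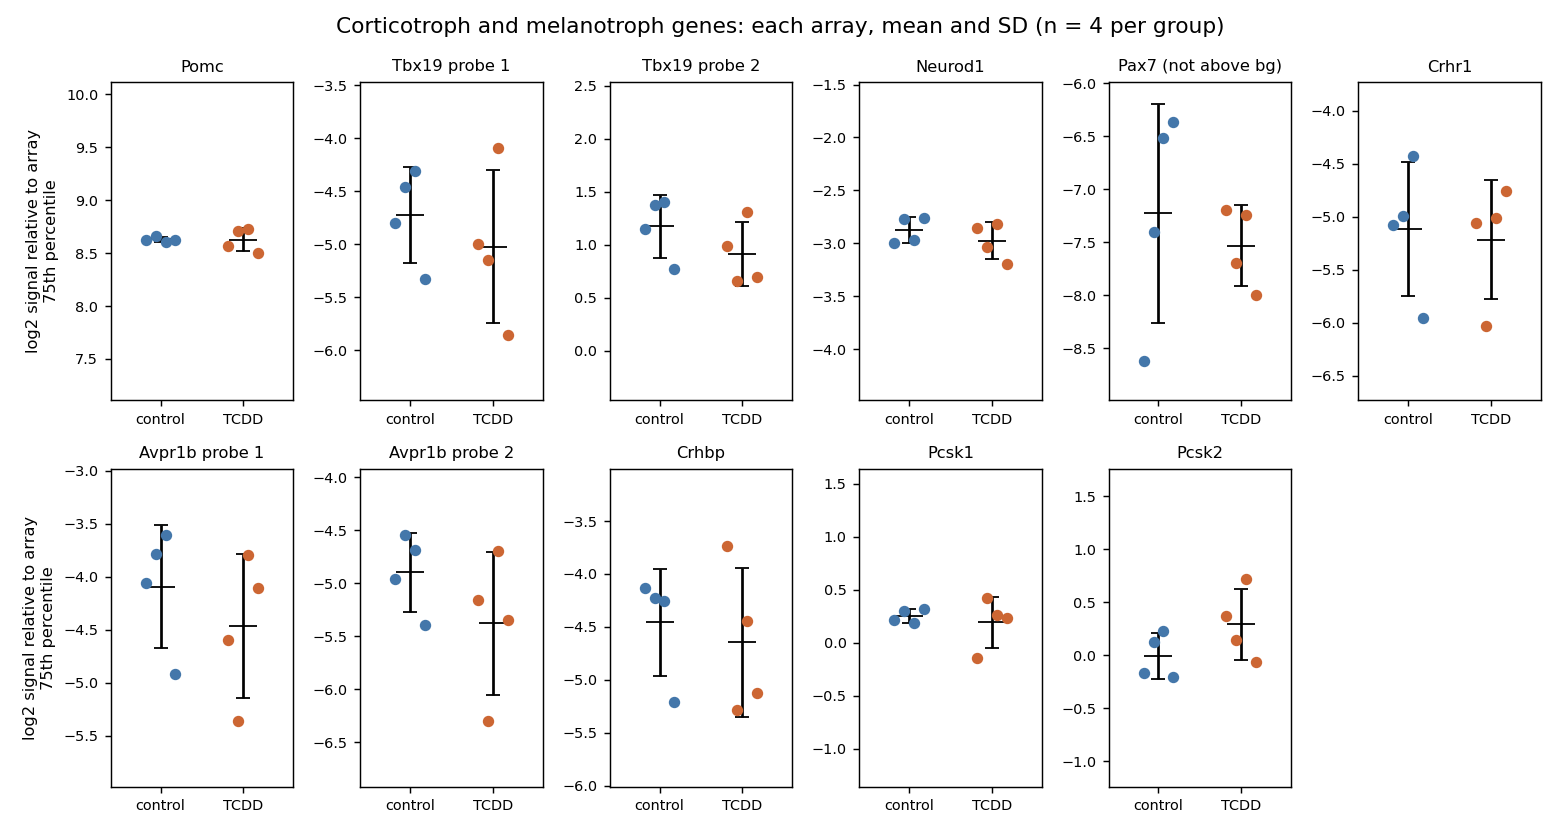
Log2 signal relative to the array's 75th percentile (vertical axes, each spanning 3 log2 units) for the 11 probes, with 1 point per array, control in blue and TCDD in orange, and the mean and SD of 4 arrays in black. The groups overlap in every panel, Pomc is the tightest, and the Pax7 probe was not well above background on any of the 8 arrays.

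Pomc, the hormone precursor itself, stood at 8.63, 8.66, 8.61 and 8.63 on the control arrays and at 8.57, 8.70, 8.72 and 8.50 on the TCDD arrays. The TCDD values lie on both sides of the narrow control range. The group means were 8.63 ± 0.02 (SD, n = 4) and 8.62 ± 0.11 (SD, n = 4), a log2 change of -0.0046 (SE 0.07; limma, adjusted p = 0.99). The 95% confidence interval, from -0.16 to 0.15, runs from 1.12-fold lower to 1.11-fold higher. No spot was flagged as saturated, and whether a signal this bright follows the amount of RNA in proportion was not tested.

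Tbx19, the factor that turns on Pomc, was read by 2 probes that moved together over the arrays. The brighter, probe 2, stood at 1.15, 1.37, 1.41 and 0.77 in controls and at 0.99, 0.66, 1.31 and 0.70 after TCDD. Control replicate 4 and TCDD replicates 2 and 4 were low, and 3 of 4 TCDD arrays lay below the control mean. The change was -0.26 (SE 0.19; limma, adjusted p = 0.69), with an interval from -0.69 to 0.17, which reaches 1.61-fold lower. Without control replicate 4 it was -0.39 and without TCDD replicate 3 also -0.39. Probe 1 differed by -0.30 (SE 0.37), and was lowest in its groups on control replicate 4 (-5.33) and TCDD replicate 4 (-5.85). By probe 2 the highest array stood 1.68-fold above the lowest.

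Neurod1, a basic helix-loop-helix factor that acts on Pomc in corticotrophs, stood at -3.00, -2.77, -2.97 and -2.76 in controls and at -2.85, -3.03, -2.82 and -3.20 after TCDD. The 2 groups cover much the same range, with TCDD replicate 4 lowest. Its change was -0.10 (SE 0.10; limma, adjusted p = 0.80), with an interval from -0.34 to 0.14. It was -0.027 without TCDD replicate 4 and -0.15 without TCDD replicate 3. Leaving out control replicate 4 gave -0.063, and leaving out control replicate 2 gave -0.067.

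Pax7, the factor that sets melanotroph identity, was well above background on 0 of 4 control and 0 of 4 TCDD arrays. Its processed intensity ran from 2.37 to 9.78, and its raw spot brightness was close to the local background, on either side of it. The spot stood at 74.9 beside 76.5 on control replicate 3, 68.1 beside 71.5 on TCDD replicate 4 and 70.3 beside 67.0 on TCDD replicate 1. The melanotroph side of this gene set was thus measured by Pcsk2 alone, and the arrays do not show the defining melanotroph factor.

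Crhr1, the receptor for corticotropin-releasing hormone, was a dim probe at -5.08, -4.99, -4.43 and -5.96 in controls and -5.06, -6.03, -5.02 and -4.76 after TCDD. It was not well above background on control replicate 4 or TCDD replicate 2, the lowest array of each group. On the other 6 arrays the TCDD values lay within the control range of -5.08 to -4.43. The change was -0.10 (SE 0.37; limma, adjusted p = 0.96), with an interval from 1.92-fold lower to 1.67-fold higher. Leaving out control replicate 3 or TCDD replicate 2 turned its sign, to 0.13 and 0.17.

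Avpr1b, the V1b vasopressin receptor that marks corticotrophs, had 2 probes. By probe 1 it stood at -4.06, -3.79, -3.61 and -4.92 in controls and at -4.60, -5.36, -3.80 and -4.10 after TCDD. The same 2 arrays, control replicate 4 and TCDD replicate 2, were again lowest in their groups, and the other 3 TCDD arrays lay within the control range. The change was -0.37 (SE 0.39; limma, adjusted p = 0.80), from 2.40-fold lower to 1.44-fold higher, and -0.48 (SE 0.33) by probe 2. This is the widest interval among the members tested, so these arrays are least precise for this receptor. Without control replicate 4 the change by probe 1 was -0.65, and without TCDD replicate 2 it was -0.07, so single arrays set its size.

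Crhbp, which encodes a secreted protein that binds corticotropin-releasing hormone and limits its action, stood at -4.13, -4.22, -4.26 and -5.21 in controls and at -3.74, -5.28, -4.44 and -5.12 after TCDD. Here 3 controls were tightly grouped and control replicate 4 was low, and the TCDD arrays reached both below and above the control range. The change was -0.19 (SE 0.38; limma, adjusted p = 0.91), and without TCDD replicate 2 it was 0.02.

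Pcsk1, the convertase that releases ACTH, stood at 0.21, 0.30, 0.19 and 0.32 in controls and at -0.15, 0.42, 0.26 and 0.24 after TCDD. Of the TCDD arrays only replicate 1 was low. The change was -0.06 (SE 0.12; limma, adjusted p = 0.90), between 1.26-fold lower and 1.16-fold higher, and without TCDD replicate 1 it was 0.05.

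Pcsk2, the convertase that cuts ACTH towards alpha-MSH, was the only member with a value above 0. It stood at -0.17, 0.13, 0.23 and -0.20 in controls and at 0.37, 0.14, 0.72 and -0.07 after TCDD. TCDD replicate 3 was highest and TCDD replicates 2 and 4 lay within the control range. The change was 0.30 (SE 0.18; limma, adjusted p = 0.62; exact two-sided permutation p = 0.17), from 1.08-fold lower to 1.63-fold higher. Over the alternative settings it kept its sign, between 0.15 and 0.42, with adjusted p from 0.48 to 0.79. The mean of the leukocyte markers, 4 of 6 measured, was lowest on control replicate 4 (-0.31 relative to the mean of the 8 arrays). It was highest on TCDD replicate 3 (0.31), and Pcsk2 was lowest and highest on the same arrays. Of the single markers only Lyz2 was lowest and highest there (2.22 and 3.67). Ptprc and Cd68 were lowest on TCDD replicate 2, and Mpo on control replicate 1. This list was singled out from the 12 marker lists after the values were seen, and its part in the value of Pcsk2 was not tested.

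**Figure D2:**
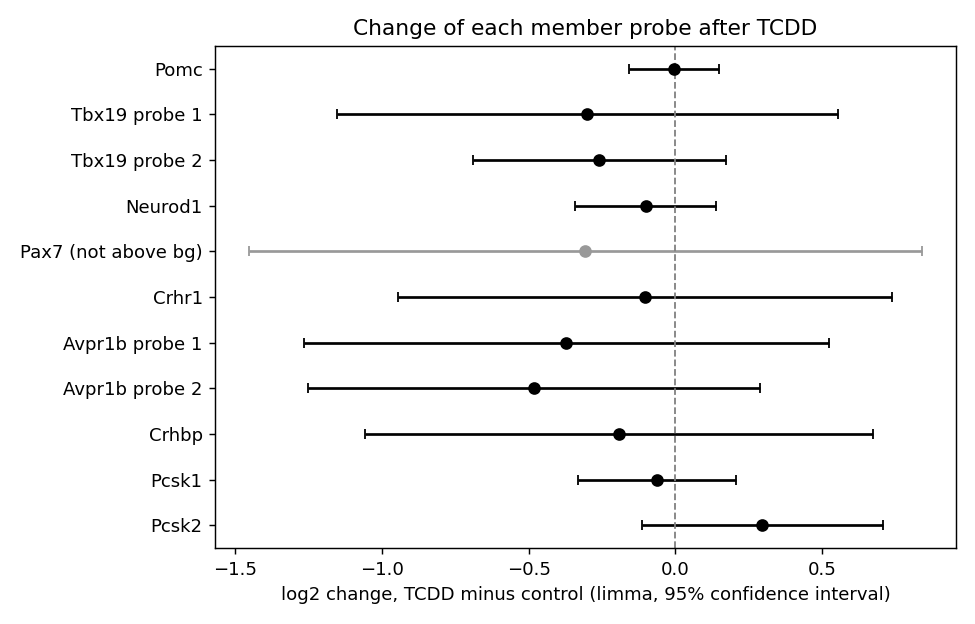
Log2 change, TCDD minus control, for each of the 11 probes (horizontal axis; points are limma estimates from 4 against 4 arrays and bars are 95% confidence intervals). Every interval includes 0. That of Pomc is the narrowest, from -0.16 to 0.15, and Pax7 (grey) was not well above background on any array.

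Melanotroph and corticotroph genes were then set side by side as a difference within each array, each gene first taken relative to its mean over the 8 arrays. The mean of Pcsk2 and Pax7 minus the mean of Crhr1, Avpr1b and Pcsk1 was -0.87, -0.27, 0.01 and 0.78 on the control arrays and 0.40, 0.42, 0.13 and -0.61 on the TCDD arrays. The groups overlapped, and the score holds the Pax7 probe, which was not well above background on any array. The group difference was 0.17, with SDs of 0.69 in controls and 0.48 after TCDD (n = 4 each). Its direction turned without control replicate 1, to -0.089, and it was 0.46 without control replicate 4, 0.41 without TCDD replicate 4, 0.068 without TCDD replicate 1, 0.061 without TCDD replicate 2 and 0.11 without control replicate 2.

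With Pcsk2 alone on the melanotroph side, a choice made after the Pax7 values were seen, the same difference was -0.41, -0.26, -0.37 and 0.10 in controls and 0.43, 0.58, 0.35 and -0.41 after TCDD. The first 3 TCDD replicates lay above all controls, and TCDD replicate 4 lay level with the lowest control. The group difference was 0.47, beside SDs of 0.23 and 0.44. Against Pcsk1 only, the convertase that releases ACTH, the difference of Pcsk2 was 0.36, with SDs of 0.25 and 0.45 and groups that overlapped. Which cell types the RNA of either convertase came from was not examined. The corticotroph genes of these scores did not all move together. Over the 8 arrays Pcsk1 had r = -0.45 with Crhr1 and -0.19 with Avpr1b, as a description. These scores combine chosen members, so they are given with no test.

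Among the 28 pairs of the 8 tested members, 1 pair had log2 differences that did not overlap between the groups. The share over all pairs of genes was not computed, and the 7.10% above is that of single genes. The count is therefore not read as a result about the members. The pair was Pcsk2 minus Tbx19 (probe 2), found after all pairs had been looked at. It stood at -0.42, -0.34, -0.28 and -0.07 in controls and at 0.28, 0.38, 0.31 and 0.14 after TCDD. All 4 TCDD arrays lay above all 4 controls in this difference, and it has no test because the pair was chosen for it. Within groups the deviations of these 2 genes from the group means had r = 0.90 over the 8 arrays, given as a description. For Tbx19 probe 1 the groups overlapped with the 75th percentile scaling, where TCDD reached down to -0.21 and controls up to 0.11. They also overlapped for probe 1 with quantile normalization and in the deposited table, and not with normexp.

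**Figure D3:**
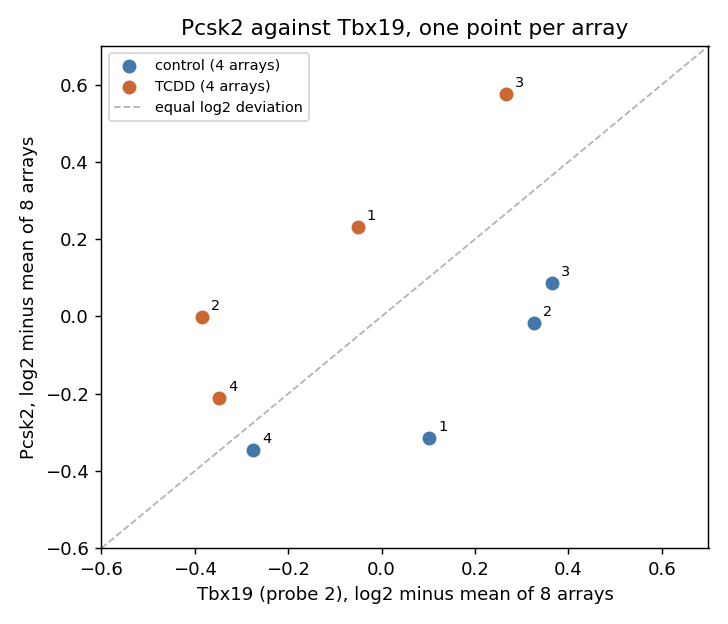
Pcsk2 (vertical) against Tbx19 probe 2 (horizontal), both as log2 signal minus the mean of the 8 arrays, with 1 point per array, replicate numbers beside the points, control in blue and TCDD in orange. The 4 TCDD arrays lie above the dashed line of equal deviation and the 4 control arrays below it.

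Of the 28 pairs, 18 had r above 0 over the 8 arrays, and the pairs with the smallest p are given here. Tbx19 and Avpr1b had Pearson r = 0.82 (exact permutation p = 0.014) and Spearman rho = 0.93 (exact permutation p = 0.0022) over the 8 arrays, and r = 0.99 without the 2 arrays farthest from the median of Tbx19. Crhr1 and Avpr1b had r = 0.90 (exact permutation p = 0.0029) and rho = 0.81 (exact permutation p = 0.022), and r = 0.53 without the 2 farthest arrays, so that relation leans on control replicate 4 and TCDD replicate 2. Adjusted over the 28 pairs by Benjamini-Hochberg, 0 pairs passed: the smallest values were 0.082 for Pearson (Crhr1 and Avpr1b, exact permutation) and 0.0625 for Spearman (Tbx19 and Avpr1b, exact permutation). Within groups the deviations gave r = 0.80 for Tbx19 and Avpr1b and 0.92 for Crhr1 and Avpr1b. Crhbp and Pcsk1 had r = -0.75 (exact permutation p = 0.0085, adjusted 0.12) and rho = -0.79 (exact permutation p = 0.028, adjusted 0.26), and r = -0.61 without the 2 farthest arrays.

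The 2 probes of Tbx19 had r = 0.90 and those of Avpr1b r = 0.91 over the 8 arrays, as a description, so separate probes of a gene gave like profiles. Of 8 posterior lobe and neural markers 6 were measured (Gfap and Mog were not), and their mean stood at 0.19, 0.59, 0.61 and -0.62 relative to the mean of the 8 arrays in controls. After TCDD it ranged from -0.52 on replicate 2 to about the mean on replicates 1 and 3. The arrays low in Avpr1b and Crhr1, control replicate 4 and TCDD replicate 2, were also lowest in neural markers and in the share of spots above background. Pcsk1 went the other way: on both arrays it was the highest of its group (0.098 and 0.20 relative to its mean over the 8 arrays). Over the 8 arrays the neural mean had r = 0.89 with Tbx19 (probe 2), 0.84 with Avpr1b (probe 1) and 0.80 with Crhr1. For each of these genes that was the largest r, by size, of any marker list, so it is a picked maximum. Other lists also had sizeable values with Tbx19, such as -0.71 for erythrocyte and 0.66 for gonadotroph markers. With Pcsk2 the neural mean had r = 0.24 and with Pomc -0.02, all as a description. In bulk tissue fewer cells of a type and less RNA per cell cannot be told apart, and the part of these markers and of the share of spots above background in the members' values was not tested. Erythrocyte markers, 6 of 8 measured, ran from -0.68 to 0.24 in controls and from -0.01 to 0.65 after TCDD, and their part was not tested either. Without control replicate 4 and TCDD replicate 2, a setting chosen after seeing the data, 0 of 8 members passed and Avpr1b stood at -0.35.

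**Figure D4:**
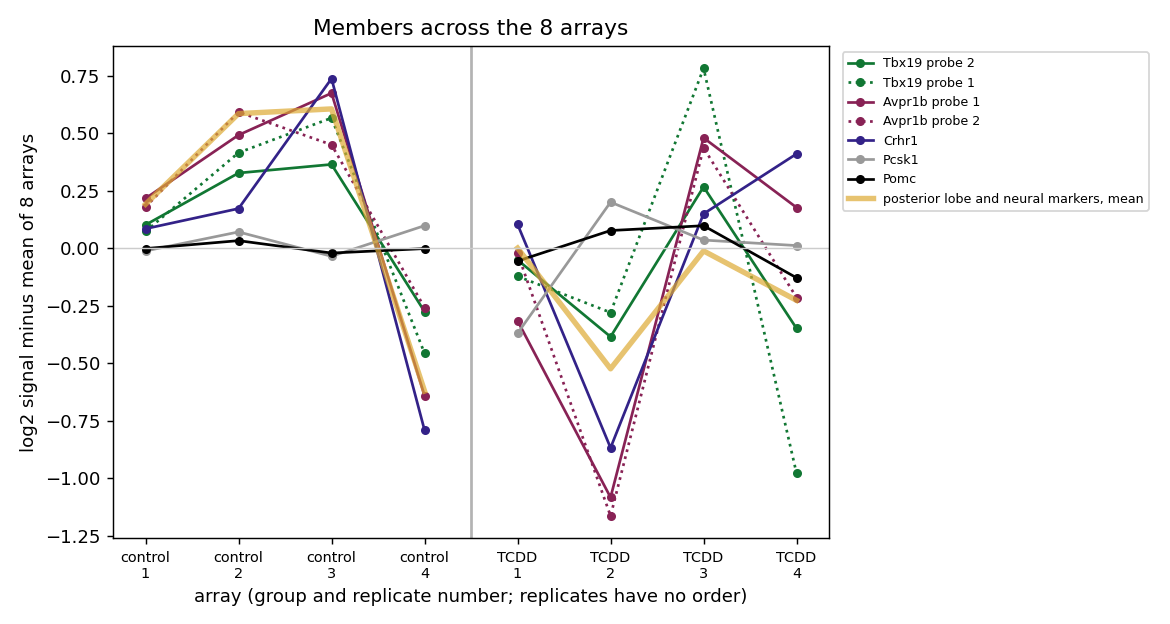
Log2 signal minus the mean of the 8 arrays (vertical) on each array (horizontal, controls left and TCDD right; lines join values of 1 probe only to guide the eye). Avpr1b and Crhr1 are lowest on control replicate 4 and TCDD replicate 2, where the mean of posterior lobe and neural markers (thick yellow line) is also lowest, while Pomc stays near 0. Pcsk1 is the highest of its group on both of those arrays.

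The genes whose levels most resembled Tbx19 over the 8 arrays, by Pearson r among 12468 genes with a symbol and as a description only, were Xdh (0.98), Mrap2 (0.97), Slc25a23 (0.96), Gpx8 (0.96) and Rhoc (0.95). Mrap2 encodes an accessory protein of melanocortin receptors and is also on a pathway list below. Those most like Pomc were Ppil3 (0.97), Swt1 (0.95), Dnaaf10 (0.95), Cdk6 (0.94) and Gda (0.94), and those most like Pcsk2 were Rap2a (0.99), Slco1a4 (0.96), Svop (0.95), Cryab (0.94) and Pxn (0.94). With only 8 arrays, 34 genes had r above 0.9 with Tbx19 and 19 each with Pomc and Pcsk2. No such list is given for Pax7, which was not well above background on any array. The lists for Tbx19 and Pcsk2 were added after their values were seen.

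The Pomc promoter is shown because Tbx19 and Neurod1, both members, are known to act on Pomc. RefSeq places it at chr6:32659103-32659402 on the plus strand of GRCr8, from 250 bases before to 50 after the gene start. Capitals mark every match, on either strand, to the motifs searched: a T-box core (TCACAC), a Pitx site (TAATCC), an E-box (CANNTG), a nuclear receptor core (AGGTCA), a CRE core (TGACG) and the core of the dioxin response element (GCGTG), the last added later.
Pomc promoter: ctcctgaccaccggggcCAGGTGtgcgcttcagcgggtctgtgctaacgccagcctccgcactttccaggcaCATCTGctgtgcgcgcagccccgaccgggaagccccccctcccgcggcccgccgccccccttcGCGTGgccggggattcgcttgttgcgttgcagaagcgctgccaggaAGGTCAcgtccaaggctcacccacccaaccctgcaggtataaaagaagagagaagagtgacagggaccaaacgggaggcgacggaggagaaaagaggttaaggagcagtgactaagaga
The window holds 2 E-boxes, 1 nuclear receptor core and 1 dioxin response element core. Promoters were found for 8 of the 9 members, all but Pcsk1. Of these 8, 3 held an E-box (71.6% of all 27457 promoters do), 4 the dioxin response element core (31.1%; Pomc, Neurod1, Pax7 and Crhbp), 2 the nuclear receptor core (15.7%), 2 the CRE core (22.0%), 1 the Pitx site (7.1%) and 0 the T-box core (13.5%). A match is a description of letters, not a bound site. Sequence outside this window was not searched, so an absent motif says nothing of sites farther away. Whether Tbx19 or Neurod1 acts at any marked stretch was not examined.

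The rest of the pathway was read through 7 lists holding 83 genes, of which 70 were tested. In no list did a gene pass (limma; 0 called higher and 0 lower, against 0.0576% higher and 0.0230% lower of all genes), and 0 of the 70 had groups that did not overlap, beside 7.10% of all genes. The values stood above 0 for 27 and below for 43, where 43.6% of all genes tested were below 0. Their median was -0.04 beside 0.02 for all genes, and the share below 0 depends on the scaling.

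Among the ligands, 5 of 9 were tested, 3 above and 2 below 0, and Crh, Ucn, Ucn3 and Il6 were not tested. Avp, the vasopressin gene, whose RNA is carried to the posterior lobe in axons, stood at -1.41 (SE 0.52; limma, adjusted p = 0.41) and Ucn2, a urocortin, at 0.31 (SE 0.09; adjusted p = 0.32). Bmp4, which represses Pomc, stood at 0.43 (SE 0.25). These 3 did not pass, and Avp is also 1 of the neural markers that varied with single arrays.

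Of 18 receptors and signalling genes 17 were tested, 8 above and 9 below 0 with a median close to 0. Crtc2, a coactivator of CREB, stood at 0.18 (SE 0.07; limma, adjusted p = 0.43), Lifr, the receptor of the cytokine LIF, at -0.29 (SE 0.12; adjusted p = 0.44) and Il6st, its signalling partner, at -0.11 (SE 0.07). Nr4a1, an orphan nuclear receptor that acts on Pomc, stood at 0.59 with an SE of 0.67, so its arrays spread widely.

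Of 9 genes of glucocorticoid feedback 8 were tested, all but Hdac2, and 6 were below 0, with a median of -0.13. Fkbp5, a chaperone that glucocorticoids induce, stood at -0.35 (SE 0.16; limma, adjusted p = 0.49), Nr3c2, the mineralocorticoid receptor, at -0.16 (SE 0.10) and Smarca4, a chromatin remodeller, at -0.09 (SE 0.07). The glucocorticoid receptor gene Nr3c1 stood at -0.19 (SE 0.13). None of them passed.

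All 16 lineage transcription factors were tested, 8 on each side of 0. Pou1f1, the factor of somatotrophs and lactotrophs rather than of these cells, stood at 0.35 (SE 0.14; limma, adjusted p = 0.44), Etv1 at 0.11 (SE 0.09) and Ikzf1, an activator of Pomc and well above background on 3 control and 2 TCDD arrays, at -0.30 (SE 0.26). Pitx1, which acts with Tbx19 on Pomc, stood at 0.03 (SE 0.07).

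All 14 genes that process and store pro-opiomelanocortin were tested, 4 above and 10 below 0, with a median of -0.06. Cpd, a carboxypeptidase, stood at -0.11 (SE 0.08; limma, adjusted p = 0.68), Pcsk7, another convertase, at 0.17 (SE 0.13) and Pam, the enzyme that amidates peptides, at -0.10 (SE 0.08). Scg5, the 7B2 chaperone that PC2 needs, differed by less than its SE of 0.08.

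Of 10 genes of dopamine and GABA input to melanotrophs 8 were tested, 2 above and 6 below 0. Gabrb1, a GABA-A subunit, stood at -0.22 (SE 0.12; limma, adjusted p = 0.56), Gabbr1, a GABA-B subunit, at -0.18 (SE 0.10), Gabra2 at 0.28 (SE 0.20) and Drd2, the dopamine receptor, at -0.06 (SE 0.08). Of 7 melanocortin receptors and accessory proteins 2 were tested, Mrap2 and Mrap, both at -0.29 (SE 0.16 and 0.26; limma, adjusted p = 0.58 and 0.76).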

How the data were processed

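Pituitary RNA was labelled with Cy3 and hybridised to 8 single-colour Agilent arrays, per the labels' protocols. Per the file headers, the authors' deposited intensities were read with version 10.7.1.1 of Agilent Feature Extraction. Each spot has a raw brightness, a local background and a processed intensity, which that software had background-subtracted and detrended. A deposited table of intensities, whose columns share 1 distribution, served as an alternative; how it was scaled is not given in the sources used here. Log2 of processed signal minus each array's 75th percentile was averaged over a probe's spots, without outlier spots. Probes well above background on 4 or more arrays were kept, and the brightest kept probe stood for a gene. Of 30367 probes, 9148 kept the files' name and the rest were named through RefSeq (GRCr8).

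Groups follow the agent in the labels (4 and 4). limma 3.58.1 in R 4.3.3 was fitted to 17361 genes, two-sided, with Benjamini-Hochberg adjustment at 0.05, and tested on simulated data. The members and lists were chosen with earlier results of these data known. Named genes were all members, pathway genes past the threshold and up to 3 per list by unadjusted p. Also planned were the 5 most like Pomc and Pax7 by r. Pax7, not well above background on any array, got no such list. Nr4a1, Nr3c1, Pitx1, Scg5 and Drd2, the lists for Tbx19 and Pcsk2, the dioxin motif and scores with Pcsk2 alone were chosen after values were seen. Alternatives changed the scaling, background correction, filter, probe summary, outlier spots, variance model, array weights, replicate block and arrays included. The number of arrays limits the precision.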

Additional observations from a re-analysis of the deposited data

Results flagged for a closer look

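Crhbp on control replicate 4 lay far below the other 3 controls: the gap to its nearest neighbour was 0.884 of the group's whole range, above Dixon's critical value for 4 arrays. It was the only one of 22 groups of 4 arrays examined over the 11 probes, and chance alone marks about 5% of groups.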

How the results depend on the processing

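No member and no pathway gene passed in any of the 20 settings run, and the lowest adjusted p of a member by limma was 0.43. Without TCDD replicate 4, Pcsk2 (0.42 on the log2 scale, SE 0.17) crossed the unadjusted threshold of 0.05 by limma, with a p of 0.042 and an adjusted p of 0.49, and it was the only member to do so in any setting. The count over all genes was unstable: 14 as reported (10 higher, 4 lower), 1 with quantile normalization (0 and 1), 9 with median centring (5 and 4), 0 with normexp (1077 higher and 846 lower at an unadjusted p under 0.05), 4 with trend and robust, 30 with array weights, 1 with the deposited table, and from 0 to 11 leaving out 1 array. It was 0 without control replicate 3 (1056 higher and 498 lower unadjusted) or TCDD replicate 1 (1178 and 453), 1 with control replicate 1 or control replicate 2 left out, 3 with TCDD replicate 2 or TCDD replicate 4 left out, 6 with TCDD replicate 3 left out and 11 with control replicate 4 left out. It was 5 without control replicate 4 and TCDD replicate 2, chosen after seeing the data. With the replicate number as a block it was 0 (1071 and 443 unadjusted). Same-numbered arrays did not deviate together (r from -0.10 to -0.02). No control array correlated best with the TCDD array of its own number. In both groups the number was also the position on the slide. Whether the numbers pair samples in some other way cannot be told from these correlations. The sign of Pomc turned with quantile normalization (0.010) and the deposited table (0.010). Its value was 0 with normexp followed by quantile normalization. That step gives the same value to a probe of the same rank on every array. Pomc ranked 2 by mean level among the genes tested, so this 0 is not read as a result. The same limit holds for quantile normalization alone and for the deposited table, whose columns share 1 distribution. The turned signs there are not read as results either. Leaving out 1 array, the change of Pomc ran from -0.038 to 0.037. Leaving out 1 array also took Tbx19 from -0.39 to -0.17, Neurod1 from -0.15 to -0.027, Crhr1 from -0.38 to 0.17, Crhbp from -0.49 to 0.020, Pcsk1 from -0.14 to 0.052, and the melanotroph minus corticotroph difference from -0.09 to 0.46. Crhr1 was not tested with a filter of all 8 arrays, and Pax7 was tested only without a filter. With Pcsk2 alone, chosen after seeing the data, that difference was 0.47. Dim probes (Crhr1, Avpr1b, Crhbp) limit what these arrays can show.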
